A study of Mus musculus with 34 samples.

Results

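This report covers 3 mouse liver tumors that carry both a TGFα and a c-Myc transgene, compared with 3 control livers. Members were chosen by sample title, which gave 6 of the 34 samples of the series. The tumors are end-stage tumors of individual mice kept off doxycycline (0 weeks on the drug), with doxycycline being the drug that switches the transgenes off. The controls are normal mouse livers with no transgene, also at 0 weeks of doxycycline. All samples are total RNA labelled with Cy3 and hybridized to 2-colour Agilent whole-genome mouse arrays against a common reference of pooled liver RNA from C57BL/6 mice of both sexes, labelled with Cy5. The promoter that drives each transgene, the species of the TGFα and c-Myc sequences, and the strain, age and sex of the sampled mice are not stated in the labels. Each replicate is labelled as a biological replicate, and nothing further says how the animals were related.

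MYC is a transcription factor that binds DNA as a dimer with MAX and is known for driving ribosome production, nucleotide and amino acid synthesis and cell division. TGFα is a ligand of the EGF receptor and acts through the RAS and ERK kinases. The adult liver is mostly quiescent hepatocytes, which carry out detoxification, nitrogen disposal and lipid metabolism and make the major plasma proteins, while fetal liver and many liver tumors express genes such as Afp, Igf2 and H19 that the adult liver keeps low.

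Values are log2 of the sample signal over the reference signal, so 0 is the level of the pooled normal liver and 1 is a doubling. A difference is the mean of the 3 tumors less the mean of the 3 controls on that log2 scale, with the standard error (SE) of limma's fit. The spread behind the SE was estimated within groups over 31 arrays of the series. Genes were called at a Benjamini-Hochberg adjusted p below 0.05 over all 21533 genes tested. Where a probe was not well above background on any array of a group, only a lower bound of the fold ("at least") is given, next to the adjusted p of the fit.

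The arrays differed in ways the groups do not explain. Between 51% and 67.4% of probes were well above background in the 6 sample channels. Tumors 1 and 2 and control 1 were scanned on the same day, while tumor 3, control 2 and control 3 were each scanned on another day, and control 2 was extracted with a different version of the scanner software's protocol. Tumors 1 and 2 also shared a slide that held no control, and tumor 3 and each control were on other slides. Y-linked genes and Xist placed tumor 1 and control 1 on the female side and the other 4 on the male side, so each group held 1 sample of the female and 2 of the male pattern. Correlations over genes ranged from 0.586 to 0.675 among tumors, from 0.524 to 0.762 among controls and from 0.352 to 0.582 between the groups. In bulk RNA, fewer cells of a type and less RNA per cell cannot be told apart.

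Myc was read first, because it checks the labels, and the Myc probes that separated the groups are shown here as the array files give them, 60 bases each.
A_52_P108346: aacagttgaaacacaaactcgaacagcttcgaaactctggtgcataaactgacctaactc
A_52_P278549: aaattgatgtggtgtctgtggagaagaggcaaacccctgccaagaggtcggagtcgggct
At Myc probe A_52_P108346 the log2 ratio was 5.04, 5.65 and 3.36 in tumors 1 to 3 and 0.08, 0.25 and -1.36 in controls 1 to 3. All 3 tumors were above all 3 controls, with tumor 3 lowest of the tumors, and the difference was 5.03 (SE 0.871, adjusted p = 0.00118). At A_52_P278549 the tumors read 3.52, 4.04 and 1.71 and the controls -0.69, 0.88 and 0.67. The groups again did not overlap, tumor 3 was again the lowest tumor, and the difference was 2.80 (SE 0.593, adjusted p = 0.00556 over probes). The third Myc probe, A_51_P102096, did not separate the groups, with 0.11, 0.57 and 0.74 in the tumors, 0.11, -0.23 and -0.67 in the controls and a difference of 0.74 (adjusted p = 0.385). An alternative used normexp background correction (offset 50) and loess dye normalization in place of the scanner software's own steps. Both steps together are called normexp background correction from here on. With them the Myc call was lost (adjusted p = 0.0527), and tumor 3 at A_52_P108346 was at 0.83 against 0.17 in the highest control. At A_52_P278549 with that correction tumor 3 was at 0.07, inside the range of the controls (-0.086, 0.50 and 0.43), so there the separation rested on tumors 1 and 2 (1.67 and 3.03).

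The Tgfa probes showed no rise. At A_51_P415126 the tumors read -2.41, -1.69 and -0.76 and the controls -0.64, -0.45 and -1.26, a difference of -0.84 (adjusted p = 0.341). At A_52_P555423 the tumors read -0.07, -0.91 and 1.51 and the controls 1.11, 0.87 and 0.81, a difference of -0.76 (adjusted p = 0.357). Only tumor 3 at the second of these probes lay above every control. Whether the Tgfa probes can detect RNA of the transgene was not tested.

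**Figure D1:**
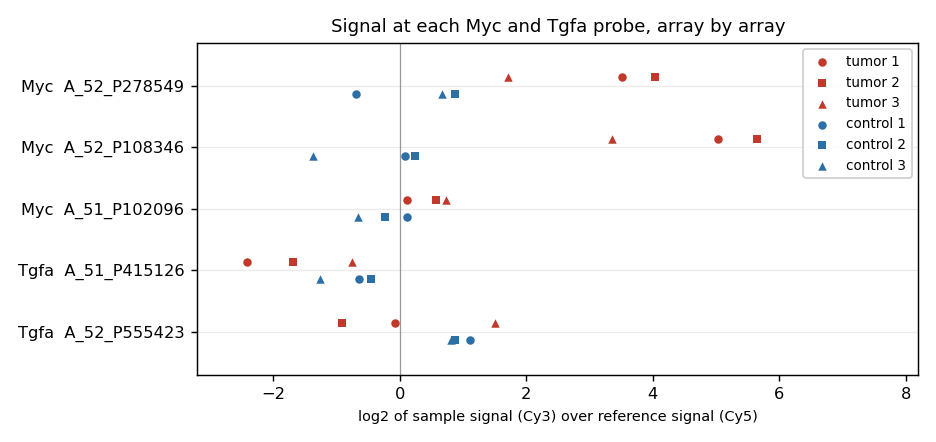
Log2 of sample over reference signal at the 3 Myc and 2 Tgfa probes, 1 row per probe and 1 point per array, with tumors in red, controls in blue and replicate number by shape. At the upper 2 Myc probes the tumors lie to the right of all controls, with tumor 3 (triangle, 1.71 and 3.36) nearest to them, while at the Tgfa probes tumors and controls mix.

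Of 21533 genes, 1546 (7.18%) passed the threshold, 810 (3.76%) higher and 736 (3.42%) lower in the tumors, and the median difference over all genes was -0.045. At an unadjusted p below 0.05 there were 4866. In 1474 of the 1546 called genes all 3 tumors lay beyond all 3 controls (762 above, 712 below), and in 414 (264 above, 150 below) the nearest tumor and control were at least 1 log2 unit apart. Over all genes tested, 9.83% had 3 tumors above 3 controls and 13.2% had 3 below, so for single genes such separation is frequent, whereas separation by at least 1 unit was found for 2.23%. The number of calls depended on single arrays: it was 425 without tumor 1, 2626 without tumor 3, and 949, 680 and 868 without controls 1, 2 and 3. Normexp background correction left 463 calls, of which 374 were among the 1546. Of the 163 called genes named here or kept in the tables behind the text, 69 kept their call when each array was left out in turn, and 11 kept it under every alternative tried: Afp, Asns, Bex2, Cdkn3, Fkbp11, Igf2, Kif20a, Phgdh, Phlda3, Psat1 and Psrc1. Of the 163, 38 kept the call when the spread was estimated from these 6 arrays alone. With scan day as a block, the difference rested on the day shared by tumors 1 and 2 and control 1. Tumor 3, control 2 and control 3 did not enter it, so a loss there cannot be told apart from the use of a single control. The genes named below that lost their call with scan day as a block were Tff3, Ccnb1, Pole, Rrm1, Mcm7, Rpl15, Rps15, Mthfd2, Tyms, Aldh18a1, Pycr1, Ly6d, Igfbp1, Btg2, Nrg4, Phlda1, Klf6, Atf3, Hilpda, Hgd, Ppp1r3c, Axin2, Oat, Mt1, Mt2, Acsm2, Srgap3 and Jchain.

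The largest rise was that of Psrc1, which encodes a protein of the mitotic spindle. Its log2 ratio was 6.55, 6.67 and 6.53 in the tumors and -1.66, -0.15 and -0.40 in the controls, a difference of 7.32 (SE 1.07, adjusted p = 0.000218). The 3 tumors were nearly equal and far above the controls, of which control 1 was lowest. Next was Tff3, a secreted trefoil peptide of mucosal epithelia, with 5.03, 5.70 and 4.88 in the tumors, -2.77, -1.24 and -0.62 in the controls and a difference of 6.75 (SE 1.56, adjusted p = 0.00951). With scan day as a block, and so with control 1 as the only control, the Tff3 difference was 8.14 and did not pass. Of the 15 largest rises without overlap, 8 encode proteins of cell division: Psrc1, the cyclins Ccnb1 and Ccna2, the mitotic kinase Pbk, the spindle assembly factor Tpx2, the phosphatase Cdkn3, the condensin subunit Ncapg and the kinetochore protein Cenpf. The other 7 were Tff3, Asns and Psat1 of amino acid synthesis, the DNA glycosylase Neil3, the aldo-keto reductase Akr1b7, the membrane protein Igdcc4 and Bex2. Ccnb1 rose at least 3.13-fold (adjusted p = 0.00128), Pbk at least 3.49-fold (adjusted p = 0.00354) and Neil3 at least 2.94-fold (adjusted p = 0.000289), since their probes were not well above background in the controls.

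Akr1b7 stood out among these for tumor 3. It read 4.81 and 4.50 in tumors 1 and 2 but 0.59 in tumor 3, against -2.27, -2.55 and -2.70 in the controls. All tumors were above all controls, with a difference of 5.81 (SE 1.11, adjusted p = 0.00232). Bex2, by contrast, was high in each tumor (4.87, 4.25 and 3.29) and low in each control (-1.20, -0.53 and -2.43), a difference of 5.52 (adjusted p = 0.000213). Igdcc4 (difference 5.78, adjusted p = 0.000236) lost its call under normexp background correction (adjusted p = 0.578), as did Ccnb1, Pbk, Tpx2, Neil3, Ncapg, Cenpf and Ccna2 (adjusted p between 0.0548 and 0.497).

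**Figure D2:**
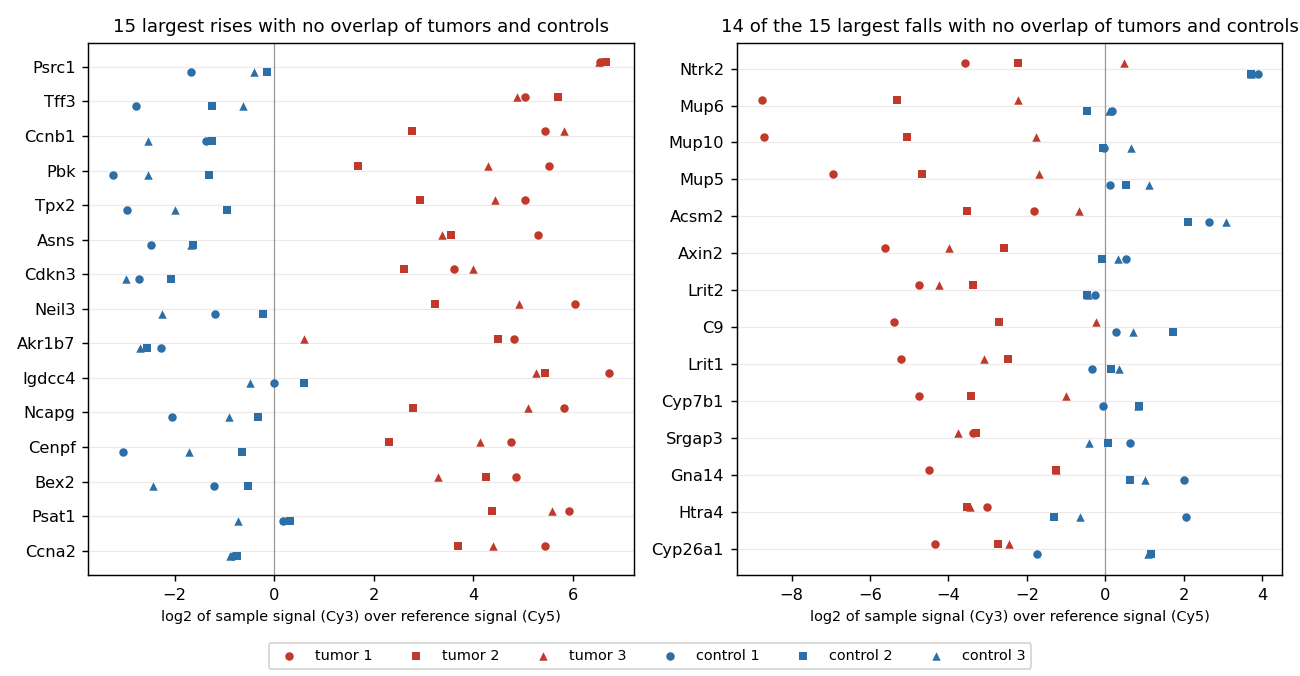
Log2 of sample over reference signal of the 15 genes with the largest rise (left) and 14 of the 15 with the largest fall (right) among called genes without overlap, 1 point per array, tumors in red and controls in blue. Psrc1 is at 6.53 to 6.67 in the tumors. Akr1b7 on the left and the Mup genes on the right show tumor 3 (triangle) nearest to the controls.

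The cell division genes moved together. Of 32 measured genes of cell cycle and mitosis, 26 rose and none fell, with a median difference of 4.11 against -0.045 over all genes, and in 29 of the 32 all 3 tumors were above all 3 controls. Cdkn3, a phosphatase that acts on cyclin-dependent kinases, read 3.61, 2.61 and 4.00 in the tumors and -2.72, -2.06 and -2.98 in the controls (difference 6.00, SE 0.789, adjusted p = 7.28e-05). Plk1, the kinase that promotes entry into and progress through mitosis, read 4.11, 3.04 and 3.95 in the tumors and -1.21, -0.24 and -0.26 in the controls (difference 4.27, SE 0.615, adjusted p = 0.000202). In both genes the groups were separated by more than 3 log2 units, and tumor 2 was the lowest tumor. Kif20a, a kinesin of cytokinesis, showed the same order with 4.49, 2.67 and 4.25 in the tumors and -0.77, -0.86 and -1.31 in the controls (difference 4.78, SE 0.745, adjusted p = 0.000414). Ccne1, the G1/S cyclin, rose by 2.77 (SE 0.449, adjusted p = 0.00064). Cdk1, the kinase partner of the mitotic cyclins, was at 2.71, 0.05 and 2.90 in the tumors and -2.10, -1.23 and -2.51 in the controls (difference 3.83, adjusted p = 0.000993). Tumor 2 stood near the reference level for this gene, and its call was lost under normexp background correction (adjusted p = 0.24).

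The mean of the 32 genes was 3.74, 1.78 and 3.39 in tumors 1 to 3 and -0.99, -0.38 and -0.71 in controls 1 to 3. Tumor 2, which had the highest Myc signal at A_52_P108346 (5.65), thus had the lowest mean of these genes, and tumor 3, which had the lowest Myc signal (3.36), was close to tumor 1. The count of called genes stayed between 19 and 28 when each array was left out, with 19 without tumor 1, and was 10 with normexp background correction (median 1.16).

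Promoters of this list are shown because its members rose together. A window from 250 bases before to 50 bases after the start was available in RefSeq (build GRCm38.p6) for 25 of the 32 genes, 26 promoters in all. The letters TTTGAA, the core of the CHR element of mitotic genes, occurred on either strand in 18 of these 26 promoters (69.2%). They occurred in 17.9% of all 32851 promoters in the table and in 13.6% of those of all genes tested. For genes called higher the share was 17.5%, and for genes called lower 12.6%. CCAAT occurred in 23 of 26 (88.5%) against 37.4% of all promoters, 37.5% for genes tested, 41.5% for genes called higher and 38.4% for genes called lower. The E-box CACGTG, a sequence that MYC and MAX can bind, occurred in 1 of the 26 (3.85%). It occurred in 12.7% of the 708 promoters of genes called higher and in 9.19% of the 653 of genes called lower. The share was 8.89% for all genes tested and 7.15% for all promoters. A match is only a match of letters. The list was written from known genes of cell division, so its shares of TTTGAA and CCAAT follow in part from how it was made. Most of its genes with TTTGAA were called, and Kif11, Kif23 and Ttk were not. Most with CCAAT were called as well, and Bub1, Kif11, Kif23 and Ttk were not. The 150 bases before the start are shown for Cdkn3 (chr14:46760391-46760540, plus strand), Plk1 (chr7:122159285-122159434, plus strand) and Cdk1 (chr10:69352913-69353062, minus strand), 5′ to 3′, with CCAAT and TTTGAA on either strand in capitals.
Cdkn3: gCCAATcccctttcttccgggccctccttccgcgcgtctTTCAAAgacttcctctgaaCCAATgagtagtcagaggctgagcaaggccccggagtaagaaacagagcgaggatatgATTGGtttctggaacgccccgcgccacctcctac
Plk1: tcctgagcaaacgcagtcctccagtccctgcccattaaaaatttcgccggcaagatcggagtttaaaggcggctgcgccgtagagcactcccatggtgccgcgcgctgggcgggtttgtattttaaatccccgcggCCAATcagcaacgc
Cdk1: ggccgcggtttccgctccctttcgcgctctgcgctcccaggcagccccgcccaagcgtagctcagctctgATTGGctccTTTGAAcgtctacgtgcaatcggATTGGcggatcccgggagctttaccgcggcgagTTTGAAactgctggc
The Cdkn3 and Cdk1 windows hold 4 matches each and that of Plk1 holds 1, its TTTGAA lying outside the 150 bases shown.

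Genes of DNA replication rose in smaller number and less evenly. Of 30 measured, 14 rose and none fell, with a median difference of 1.62, and in 17 all tumors were above all controls. Pole, the catalytic subunit of a leading-strand DNA polymerase, read 3.35, 1.47 and 2.26 in the tumors and -0.12, -0.17 and -0.16 in the controls (difference 2.51, SE 0.456, adjusted p = 0.00163). The controls were nearly equal and tumor 2 was again the lowest tumor. Rrm1, the large subunit of ribonucleotide reductase, rose by 2.34 (adjusted p = 0.00532) and Mcm7, of the replicative helicase, by 1.94 (adjusted p = 0.0116), but neither passed without tumor 1 (adjusted p = 0.0689 and 0.109). The list mean was 2.22, 0.19 and 1.65 in tumors 1 to 3 and between -0.37 and -0.16 in the controls. Calls in the list fell to 1 without tumor 1, to 9 without tumor 3 and to 8, 6 and 5 without controls 1, 2 and 3, rose to 23 without tumor 2, and were 0 with normexp background correction. The Pole call was itself lost with that correction (adjusted p = 0.133).

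Genes of ribosome production showed modest rises. Of 28 genes of ribosome biogenesis 7 rose, none fell and all 28 differences were positive, with a median of 1.07, and in 19 the 3 tumors were above the 3 controls. Nop58, a core protein of box C/D small nucleolar RNA complexes, read 3.14, 2.01 and 1.95 in the tumors and -0.21, 0.14 and 0.51 in the controls (difference 2.22, SE 0.409, adjusted p = 0.00179). Its partner Nop56 read 3.07, 2.55 and 1.45 in the tumors and -0.29, 0.14 and 0.38 in the controls (difference 2.28, adjusted p = 0.00569; 0.0611 without tumor 1). For both, tumor 1 was the highest and tumor 3 the lowest. The mean of the 28 genes followed that order (1.97, 0.81 and 0.55), which is the order of neither Myc nor the mitotic genes. The number called was 1 without tumor 1, 14 without tumor 3, 3, 2 and 3 without controls 1, 2 and 3, and 3 with normexp background correction.

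Among 78 cytosolic ribosomal protein genes, 15 rose and none fell, with a median of 0.53 and 28 of the 78 above all controls. Rpl15 read 1.86, 0.93 and 1.24 in the tumors and 0.36, -0.46 and -0.29 in the controls (difference 1.48, SE 0.231, adjusted p = 0.000451). Rps19, Rpl35 and Rps15 rose by 1.32, 1.20 and 1.12 (adjusted p between 0.00296 and 0.00417). These are small but even differences, with no overlap of the groups in the 4 genes. Ribosomal protein genes have many processed copies in the genome, and a probe may also read those. Calls were 4 without tumor 1, 6 and 7 without controls 2 and 3, and 26 with normexp background correction. In contrast, 1 of 78 mitochondrial ribosomal protein genes was called (median 0.03), and of 81 genes of the respiratory chain and ATP synthase 5 were lower and none higher (2 to 6 lower with an array left out, and with normexp background correction none lower and 1 higher).

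Amino acid synthesis held the smallest adjusted p-value among the named genes. The serine pathway makes serine from a glycolytic intermediate in 3 steps, run by Phgdh, Psat1 and Psph, and all 3 enzymes rose. Psat1, the aminotransferase, read 5.92, 4.38 and 5.58 in the tumors and 0.18, 0.31 and -0.73 in the controls (difference 5.37, SE 0.583, adjusted p = 1.03e-05). Phgdh, the dehydrogenase of the first step, read 5.54, 6.07 and 5.79 in the tumors and 0.34, 1.81 and 1.25 in the controls (difference 4.67, SE 0.572, adjusted p = 3.41e-05). Psph, the phosphatase of the last step, read 3.15, 2.34 and 3.18 in the tumors and -0.22, 0.27 and 0.49 in the controls (difference 2.71, SE 0.379, adjusted p = 0.000149). In all 3 genes every tumor was well above every control, tumor 3 included.

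The one-carbon genes split. The mitochondrial enzymes Mthfd1l (difference 3.23, SE 0.521, adjusted p = 0.000617) and Mthfd2 (3.12, SE 0.705, adjusted p = 0.0082) rose. Mthfd1l read 4.58, 2.65 and 3.07 in the tumors and 0.26, 0.47 and -0.12 in the controls, and Mthfd2 read 4.43, 3.09 and 5.06 against 0.58, 1.25 and 1.38. Both separated the groups, with tumor 2 lowest of the tumors. The cytosolic Mthfd1 (-0.02), the serine hydroxymethyltransferases Shmt1 (0.08) and Shmt2 (0.24) and the glycine-cleavage enzyme Gldc (0.85) had differences that did not pass (adjusted p between 0.689 and 0.984). Over the list of 14 genes, 6 rose and none fell (median 0.77); without tumor 1 there were 4, as Mthfd2 (adjusted p = 0.0528) and Tyms (0.172) were lost, and with normexp background correction 4.

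Asns, which makes asparagine and is a known target of the stress factor ATF4, read 5.31, 3.55 and 3.38 in the tumors and -2.47, -1.62 and -1.67 in the controls (difference 6.00, SE 0.826, adjusted p = 0.000131). Every tumor was about 5 log2 units or more above the highest control. Aldh18a1, of proline synthesis, read 3.57, 2.87 and 4.16 in the tumors and 1.02, 0.04 and -0.19 in the controls (difference 3.24, SE 0.59, adjusted p = 0.00163), a call that was lost with normexp background correction (adjusted p = 0.847). Ddit4, an inhibitor of mTORC1 signalling, rose by 2.20 (SE 0.45, adjusted p = 0.00407). Of 24 genes of the ATF4 list 6 rose and none fell (median 1.09), and 13 of 24 had all tumors above all controls. Other members of the list did not pass: the hormone Fgf21 read 2.51, 4.46 and 4.76 in the tumors and 1.95, 1.34 and 1.88 in the controls (adjusted p = 0.0609), and the stress genes Chac1, Trib3 and Ddit3 had adjusted p-values of 0.123, 0.163 and 0.989. Calls were 4 without tumor 1, 4 and 3 without controls 2 and 3, and 2 with normexp background correction. Of 20 aminoacyl-tRNA synthetases 5 rose (median 0.39); the most even was Sars, at 2.23, 2.18 and 2.19 in the tumors and 0.96, 1.01 and 1.04 in the controls (difference 1.20, SE 0.233, adjusted p = 0.0027). Without tumor 1, control 1, control 2 or control 3 each, 2 synthetases were called.

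The window before Asns (chr6:7693210-7693359, minus strand, GRCm38.p6) is shown with the letters TGATGNAAN, a form of the amino acid response element, in capitals, and that before Aldh18a1 (chr19:40588464-40588613, minus strand) with its E-box CACGTG in capitals, both 5′ to 3′.
Asns: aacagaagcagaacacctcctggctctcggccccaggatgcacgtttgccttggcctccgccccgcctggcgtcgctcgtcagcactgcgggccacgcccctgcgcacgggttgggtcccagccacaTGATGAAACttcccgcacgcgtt
Aldh18a1: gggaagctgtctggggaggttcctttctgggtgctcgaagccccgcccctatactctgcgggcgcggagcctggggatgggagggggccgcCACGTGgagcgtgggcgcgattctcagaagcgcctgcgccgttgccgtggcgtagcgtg
TGATGNAAN was found on either strand in 8 of the 25 promoters of the ATF4 list (32%) and 5 of the 13 of the synthetases (38.5%). It was found in 3.95% of all promoters, 2.67% of those of genes tested, 2.54% of those of genes called higher and 1.68% of those of genes called lower. The ATF4 list was written from known targets of ATF4, so its share follows in part from how it was made. Of the ATF4-list genes with this match, Asns and Pycr1 were called, and Chac1, Fgf21, Nupr1, Slc7a11, Trib3 and Vldlr were not. Of the synthetases with the match, Iars was called, and Aars, Gars, Tars and Yars were not. CACGTG was found in 3 of the 25 promoters of the ATF4 list (12%). The share was 8.89% for genes tested and 12.7% for genes called higher. Of the ATF4-list genes with CACGTG, Aldh18a1 was called, and Fgf21 and Nupr1 were not.

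**Figure D3:**
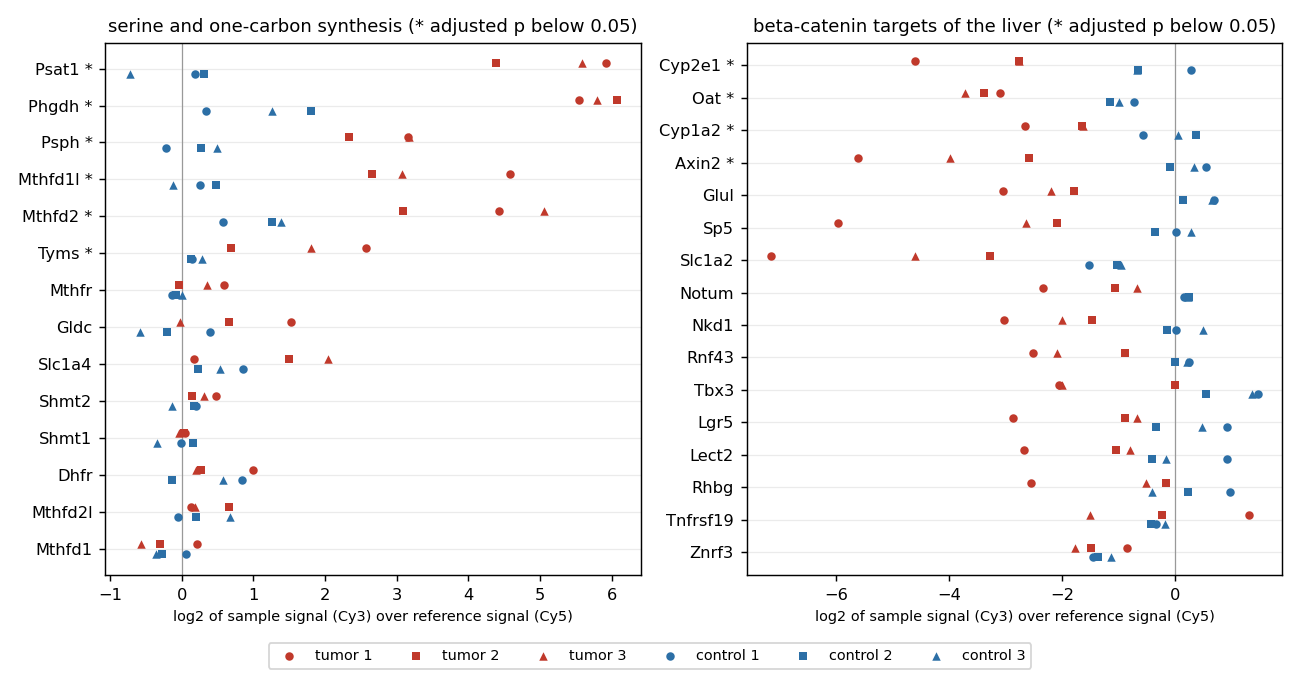
Log2 of sample over reference signal of the 14 genes of serine and one-carbon synthesis (left) and the 16 beta-catenin targets (right), ordered by p, 1 point per array, tumors in red and controls in blue, with an asterisk at genes called. Psat1, Phgdh and Psph lie far to the right of all controls in every tumor, and the targets on the right lie mostly to the left of them, farthest in tumor 1.

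Of 18 genes in a mixed list of oncofetal liver genes and tumor markers, 6 rose, none fell and 7 had all tumors above all controls (median 1.02). Igf2, a fetal growth factor, read 4.03, 5.45 and 4.77 in the tumors and 0.00, 1.14 and -0.41 in the controls (difference 4.51, SE 0.528, adjusted p = 2.12e-05). The Igf2 probe was saturated in 1 of the 3 tumors, so its tumor mean is only a bound. H19, the noncoding RNA next to Igf2, read 3.67, 3.76 and 1.94 in the tumors and 0.00, 0.19 and -0.52 in the controls (difference 3.23, SE 0.429, adjusted p = 8.08e-05). A reading of 0.00, as in control 1 for both genes, can stand for both channels at background. Afp, the fetal counterpart of albumin, read 5.51, 5.08 and 3.75 in the tumors and -1.07, 0.15 and -0.66 in the controls (difference 5.31, SE 0.969, adjusted p = 0.00163). Tumor 3 was the lowest tumor for H19 and Afp but not for Igf2, and no tumor overlapped the controls. Golm1, a Golgi protein used as a marker of hepatocellular carcinoma, rose by 2.94 (SE 0.349, adjusted p = 2.12e-05). The other 2 genes called were Tff3 and Ly6d, and the call of Ly6d was lost without tumor 1 (adjusted p = 0.0702). Igf2bp3, which binds Igf2 RNA, read 5.87, 1.51 and 3.20 in the tumors and 1.46, 0.14 and 0.38 in the controls and did not pass (adjusted p = 0.0731), and neither did Spp1 (adjusted p = 0.688).

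Among other genes of the IGF axis, the binding protein Igfbp1 was even in the tumors at 1.10, 1.28 and 1.49 and lower in the controls at -2.23, -3.42 and -4.09 (difference 4.54, SE 1.12, adjusted p = 0.0148). Without tumor 1, control 2 or control 3 its adjusted p was 0.0588, 0.0556 and 0.0653. Igfals, which carries IGF in the blood, fell by 1.46 (adjusted p = 0.00791; 0.0828 without tumor 1). The other 10 measured genes of the axis did not pass, Igf1 (adjusted p = 0.4) and Igf1r (0.503) among them.

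Targets of p53 rose in part. Cdkn1a, the CDK inhibitor p21, read 3.81, 3.54 and 4.63 in the tumors and -0.69, 0.15 and -1.33 in the controls (difference 4.62, SE 0.576, adjusted p = 4.03e-05). Tumor 3 was the highest and all tumors were over 3 log2 units above the controls; with normexp background correction the adjusted p was 0.154. Phlda3, an inhibitor of AKT, rose by 3.67 (SE 0.544, adjusted p = 0.000236). Gdf15, a stress-induced hormone, was at 0.52, 0.89 and 0.50 in the tumors and -1.34, -0.26 and -0.96 in the controls (SE of the difference 0.324, adjusted p = 0.006). Eda2r, a TNF receptor family member, rose at least 1.91-fold (adjusted p = 0.000202), and Btg2 by 2.37 (adjusted p = 0.014; 0.0528 without control 3). In all 5 of 18 genes rose and none fell (median 0.76), between 4 and 6 with each array left out, and 2 with normexp background correction. Bax did not pass (adjusted p = 0.0909).

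Few genes of the EGF receptor pathway, in which TGFα is a ligand, were called. The lists are too short to set these counts apart from the 7.18% called over all genes. Of 11 genes of the receptor family and its ligands 1 was called, the ligand gene Nrg4, at 1.03, 1.55 and 0.35 in the tumors and -0.52, -1.97 and -1.83 in the controls (difference 2.41, SE 0.601, adjusted p = 0.0158). Its adjusted p rose to 0.0707, 0.0544, 0.0822 and 0.0653 without tumor 1, tumor 2, control 2 and control 3. Egfr itself read -2.89, -1.64 and 0.10 in the tumors and -1.37, -0.43 and -0.14 in the controls (adjusted p = 0.595), with tumor 3 above and tumors 1 and 2 below all controls. Of 12 genes of ERK feedback 1 was called, and it fell: Phlda1 read -3.28, -1.07 and -3.26 in the tumors and 0.24, 0.77 and 0.89 in the controls (difference -3.17, SE 0.578, adjusted p = 0.00163). The ERK phosphatase gene Dusp6 (adjusted p = 0.447) and the inhibitor gene Spry4 (adjusted p = 0.266) did not pass. Of 15 immediate early genes, 2 rose, Klf6 (difference 1.19, adjusted p = 0.0365) and Atf3 (1.98, adjusted p = 0.044); neither was called without tumor 1 (adjusted p = 0.122 and 0.12), nor with any of the 3 controls left out (adjusted p between 0.0596 and 0.141), Klf6 was also lost without tumor 2 (0.0854) and Atf3 without tumor 3 (0.17).

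Genes for lipid handling changed in both directions. Lpl, the lipoprotein lipase that adult hepatocytes hardly express, read 3.32, 4.15 and 2.78 in the tumors and -1.15, -0.57 and -0.08 in the controls (difference 4.02, SE 0.711, adjusted p = 0.00133). The lipid droplet genes Cidea and Hilpda rose by 4.42 (adjusted p = 0.00293; 0.271 with normexp background correction) and 1.60 (adjusted p = 0.0069). The hepatic lipase gene Lipc fell by 1.41 (adjusted p = 0.00579; 0.109 with normexp background correction). Insig1, a sterol sensor, read -2.59, -2.01 and -0.30 in the tumors and 0.85, 1.24 and 0.95 in the controls (difference -2.65, SE 0.469, adjusted p = 0.00133). Tumors and controls did not overlap for Insig1, and tumor 3 was nearest to the controls. Of 21 genes of the cholesterol list 4 fell and none rose (median -0.99), 2 without tumor 1, tumor 2 or any single control and 13 without tumor 3; the mean of the list was -1.42, -1.56 and 0.16 in tumors 1 to 3, with tumor 3 at the level of the controls (-0.11 to 0.08).

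Some genes of fatty acid synthesis and of oxidation fell. Elovl5, which lengthens polyunsaturated fatty acids, read -2.67, -2.02 and -0.66 in the tumors and 0.25, 0.46 and 0.50 in the controls (difference -2.18, SE 0.354, adjusted p = 0.00064). Thrsp, a lipogenic factor, fell by 1.90 (SE 0.39, adjusted p = 0.0041). Both were below every control in every tumor. Of 15 synthesis genes 4 fell and none rose (median -0.80), and 2 without tumor 1 or without control 1. Etfdh and Decr1, of mitochondrial oxidation, fell by 1.36 and 1.53 (adjusted p = 0.00354 and 0.00529; 0.0601 and 0.22 with normexp background correction). Of 22 oxidation and ketogenesis genes 6 fell and none rose (median -0.61); without tumor 1, 3 fell and 1 rose, without controls 1 and 2 3 fell each, and with normexp background correction 2. Catalase (Cat), which removes peroxisomal hydrogen peroxide, read -3.11, -2.19 and -1.63 in the tumors and -0.36, -0.27 and 0.16 in the controls (difference -2.15, SE 0.352, adjusted p = 0.000666).

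Genes of hepatocyte metabolism were lower in most members. Most did not pass, though each list below held a larger share of genes called lower than the 3.42% over all genes. Of 27 genes of the urea cycle and amino acid breakdown, 26 had negative differences, 19 had all tumors below all controls and 7 were called (median -1.11). Hgd, of tyrosine breakdown, was at -2.87 and -2.62 in tumors 1 and 3 and between -1.78 and -0.95 in the controls, with tumor 2 between these (difference -1.22, SE 0.281, adjusted p = 0.00912; 0.0814 without tumor 1 and 0.063 without control 2). The groups did not overlap, and the gap was small. Of 22 cytochrome P450 and related genes 6 fell (median -1.44), of 23 conjugating enzymes 4 (median -1.12), of 18 genes of bile acid synthesis and transport 3 (median -1.20) and of 13 genes of glucose production and glycogen 2 (median -0.82), and none rose in these 4 lists. Cyp2e1, which oxidizes ethanol, read -4.61, -2.76 and -2.76 in the tumors and 0.27, -0.66 and -0.67 in the controls (difference -3.02, SE 0.79, adjusted p = 0.0205; 0.165, 0.0822 and 0.0525 without tumor 1, control 1 and control 2). Ppp1r3c, which directs glycogen synthesis, fell by 2.26 (adjusted p = 0.0032; 0.0694 with normexp background correction). Without tumor 1 the calls were 1 for the urea list and 0 for the P450, conjugating and bile acid lists; without control 1 they were 2, 1, 1 and 2, without control 2 2, 1, 0 and 1, and without control 3 5, 2, 1 and 1, and with normexp background correction 0, 1, 0 and 1, in that order of lists. The glucose list had 1 call without tumor 1, tumor 3 or any control, and none with normexp background correction. Tumor 1 had the lowest mean of the urea, P450, conjugating and bile acid lists, at -1.79, -3.38, -2.44 and -2.45, against -1.02, -1.76, -1.48 and -1.02 in tumor 2 and -1.60, -2.22, -1.30 and -1.44 in tumor 3.

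Targets of beta-catenin in the liver, most of which are active in hepatocytes around the central vein, were lower as a list: 13 of 16 had all tumors below all controls, with a median of -2.13. Axin2, a feedback inhibitor of the pathway, read -5.62, -2.59 and -3.99 in the tumors and 0.54, -0.09 and 0.33 in the controls (difference -4.33, SE 1.31, adjusted p = 0.0446). Glul, the glutamine synthetase, read -3.05, -1.80 and -2.20 in the tumors and 0.69, 0.13 and 0.65 in the controls, and did not pass (difference -2.84, adjusted p = 0.0856). The ornithine aminotransferase gene Oat fell by 2.44 (adjusted p = 0.0223) and Cyp1a2 by 1.92 (adjusted p = 0.024). The controls were tight and the tumors spread, with tumor 1 lowest for Axin2, Glul and Cyp1a2. Only 4 of 16 passed the threshold (Cyp2e1, Oat, Cyp1a2 and Axin2), and none without tumor 1 or control 2, 3 without tumor 3, 1 without control 1 or control 3, and none with normexp background correction. The adjusted p of Axin2 ranged from 0.0584 to 0.244 without tumor 1, tumor 3 or any control, that of Oat from 0.0591 to 0.0718 without tumor 1 or any control, and that of Cyp1a2 from 0.0731 to 0.169 without tumor 1, control 2 or control 3.

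**Figure D4:**
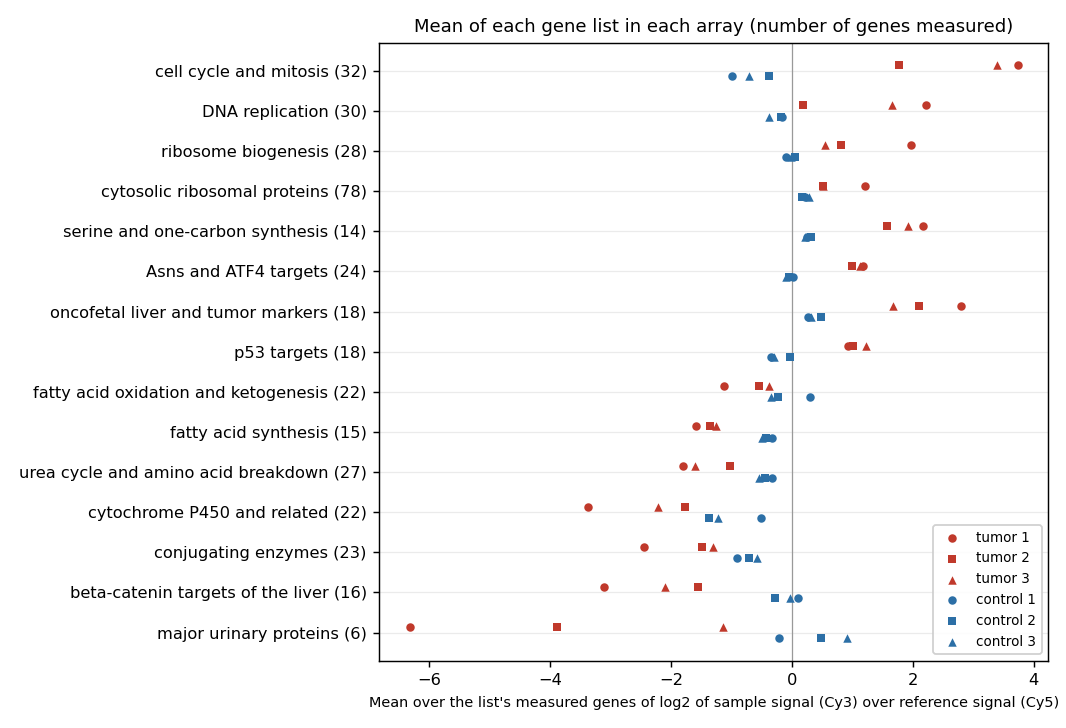
Mean over the measured genes of 15 lists of log2 of sample over reference signal, 1 row per list and 1 point per array, tumors in red, controls in blue, number of genes in brackets. The cell cycle list is at 3.74, 1.78 and 3.39 in the tumors and below 0 in the controls, and in most of the lower lists tumor 1 (circle) is farthest left.

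Plasma protein genes were lower in most members, and most did not pass, beside 3.42% of all genes called lower. All 32 genes of coagulation and complement had negative differences (median -0.62) and 2 were called, none when tumor 1, tumor 2 or any control was left out, nor with normexp background correction. Of 15 apolipoprotein genes 12 had negative differences (median -0.68), 3 fell and 1 rose; none was called without tumor 1, and 1 fell without control 1. Without control 2 or control 3, and with normexp background correction, no apolipoprotein gene was called lower. Orm1 and Orm2, the acid glycoproteins of the acute phase, fell by 3.21 and 3.20 (adjusted p = 0.00139 and 0.00227). Orm2 read -2.89, -4.81 and -2.45 in the tumors and 0.22, -0.18 and -0.57 in the controls, with no overlap and tumor 2 lowest. The Orm genes are close paralogs, and their probes may read each other. Of 23 acute phase genes, 19 with negative differences, 4 fell and 2 rose, and 2 fell without tumor 1, without tumor 2 or with normexp background correction. The genes that rose were the metallothionein genes Mt2 and Mt1, which in control 1 (2.93 and 2.87) were close to the tumors (2.70 to 3.39) and were low in controls 2 and 3 (-1.53 to -1.23); without tumor 1 or tumor 2, and without control 2 or 3, no gene of this list was called higher. Of the 13 hepatocyte markers, among them albumin, transthyretin and transferrin genes, 1 was called, Cyp2e1. The mean of the 13 was -1.80, -0.63 and -0.54 in tumors 1 to 3 and between -0.40 and -0.26 in the controls, so tumor 1 stood apart.

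The largest falls included a receptor and the major urinary proteins. Ntrk2, the BDNF receptor TrkB, read -3.58, -2.24 and 0.49 in the tumors and 3.89, 3.71 and 3.72 in the controls (difference -5.55, SE 1.24, adjusted p = 0.00719; 0.0745 without tumor 1). The controls were within 0.2 of each other and tumor 3 was nearest to them. Acsm2, a medium-chain acyl-CoA synthetase, read -1.83, -3.53 and -0.67 in the tumors and 2.64, 2.10 and 3.09 in the controls (difference -4.62, SE 0.921, adjusted p = 0.00335). Serpina12, an adipokine gene, fell by 3.27 (SE 0.675, adjusted p = 0.00422) and the leucine-rich repeat gene Lrit1 by 3.64 (SE 0.51, adjusted p = 0.000149). Acsm2, Serpina12 and Lrit1 kept their call without each array, and Serpina12 lost it with normexp background correction (adjusted p = 0.0768). For Lrit2 and Srgap3 the tumor signals were not well above background, and the falls were at least 1.30- and 1.29-fold.

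Major urinary proteins (Mup), pheromone carriers that male liver secretes in quantity, gave the widest spread between tumors. Mup6 read -8.77, -5.30 and -2.23 in tumors 1 to 3 and 0.18, -0.46 and 0.09 in the controls (difference -5.37, SE 1.16, adjusted p = 0.00578). Mup10 and Mup5 fell by 5.37 and 5.03 (adjusted p = 0.00532 and 0.00714). Without tumor 1 the 3 genes had adjusted p-values of 0.0745, 0.0667 and 0.0883. Tumor 1, on the female side of the sex markers, was lowest. Control 1, also on that side, was the highest control for Mup6, lay between the others for Mup10 and was the lowest control for Mup5 (0.13 against 0.54 and 1.12), Mup4, Mup1 (-0.44 against 1.14 and 1.48) and Mup3 (-0.98 against 1.09 and 1.25). The part of sex in these values was not tested beyond a fit with the sex score as a covariate, in which Mup6 differed by -5.32 (adjusted p = 0.00106). Mup genes are nearly identical in sequence, so the probes may not separate them. All 6 measured Mup genes had negative differences; 3 were called, none without tumor 1 and 6 without tumor 3. Tumor 3 averaged -1.14 over the 6 genes, against -6.32 and -3.88 in tumors 1 and 2 and between -0.21 and 0.91 in the controls. The probe of Mup1, one of the 6, was saturated in all 3 controls, so its control values and these averages are only bounds.

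Which changes held in tumor 3, the tumor with the lowest Myc signal, was counted over genes selected on the other tumors. Tumors 1 and 2 shared a slide and scan day that tumor 3 did not, so its differences from them cannot be told apart from slide and day. In 650 genes tumors 1 and 2 were both at least 1 log2 unit above every control, and tumor 3 was also above every control in 459 (70.6%), within their range in 128 and below it in 63. In 588 genes tumors 1 and 2 were at least 1 unit below, and tumor 3 was also below in 482 (82%), within range in 80 and above in 26. The same 3 controls served to choose the genes and to place tumor 3, which can raise these shares. The share of all genes with tumor 3 beyond every control was not counted. Of the 1238 genes so chosen, 26 belong to the mitotic list, and in 24 of these tumor 3 was at or above the mean of tumors 1 and 2. Tumor 2, lowest of the tumors in the mean of the mitotic list, pulls that mean down, and the other chosen genes were not counted in this way.

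The genes that tumor 3 did not share included several of red blood cells. Eraf, which encodes the protein that stabilizes free alpha hemoglobin, read 5.06 and 4.60 in tumors 1 and 2 and 0.00 in tumor 3, against 0.10, -1.07 and -1.11 in the controls. Rhd, of the Rh blood group complex, read 6.00, 4.25 and 0.00 in the tumors and between -0.12 and 0.00 in the controls. Tumors 1 and 2 were far above all controls and tumor 3 inside their range, where a value of 0.00 stands for both channels at background. The erythroid ubiquitin ligase gene Trim10 read 3.96, 2.64 and 0.19 in the tumors (adjusted p = 0.0067; 0.0863 without tumor 1). Slc4a1, the red cell anion exchanger, was called (difference 4.91, adjusted p = 0.00517; 0.0588 without tumor 1) at 4.59, 3.94 and 0.38 in the tumors and -5.95, 0.00 and 0.14 in the controls, the low value of control 1 adding to the difference. Hba-a1, alpha globin, read 1.49, 2.60 and -0.75 against 0.07, -0.08 and -0.14 (adjusted p = 0.303). Of 5 measured erythroid markers 1 was called, and 3 without tumor 3. The part that red cells or their precursors in the samples had in these values was not tested. Also above controls in tumors 1 and 2 only were the amino acid transporter genes Slc38a5 and Slc7a3, the calcium pump gene Atp2c2 and Defb1, and below controls in these tumors only Mup1, Mup3, Gbp8, Pfn2 and the carbonic anhydrase gene Car3.

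**Figure D5:**
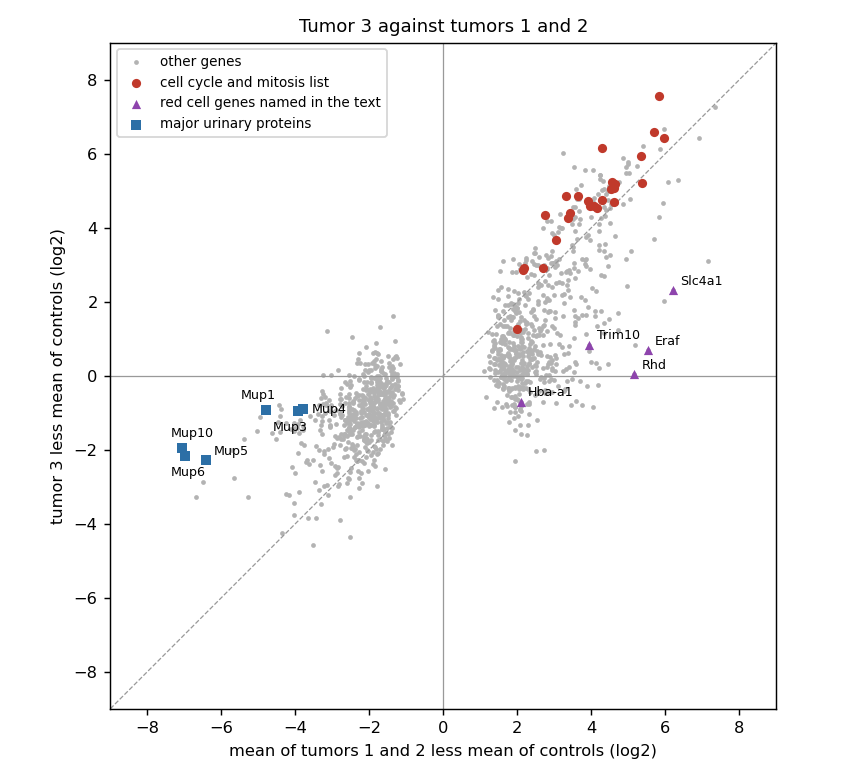
Difference from the control mean in tumor 3 (vertical) against that in the mean of tumors 1 and 2 (horizontal), log2, for the 1238 genes in which tumors 1 and 2 were both at least 1 beyond all controls on the same side, which leaves the middle empty by choice. Genes of the cell cycle list lie on or above the dashed line of equality in 24 of 26 cases, a share not counted over the other genes shown. Eraf, Rhd, Trim10 and Hba-a1 lie near 0 in tumor 3, and the Mup genes lie between 0 and the line. Eraf, Rhd and Trim10 were named because tumor 3 lay inside the range of the controls, so their place follows from that choice.

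Few markers of other cell types were called, while the medians of several lists lay away from the -0.045 of all genes. The median difference was 1.42 over the 10 intestinal markers, 1.17 over the 5 erythroid, -0.69 over the 16 lymphocyte, -0.67 over the 16 macrophage and Kupffer cell and -0.23 over the 14 biliary markers. It was 0.07 over the 12 neutrophil, 0.02 over the 20 stellate cell and -0.15 over the 15 endothelial markers. None of 16 macrophage and Kupffer cell, 15 endothelial, 20 stellate cell and matrix, and 12 neutrophil markers was called in either direction; at an unadjusted p below 0.05 there were 1 lower macrophage, 1 higher endothelial, 2 higher stellate and 0 neutrophil markers. Of 14 biliary and progenitor markers 1 was higher (Tff3, not called with scan day as a block), and of 10 intestinal markers 2 were (Tff3 and Lypd8, the latter at least 1.41-fold, adjusted p = 0.0313, and above 0.05 when any array but tumor 3 was left out, 0.0532 to 0.267). The biliary markers Epcam (adjusted p = 0.75) and Cldn7 (0.731) did not pass. Of 16 lymphocyte markers 1 was lower (Jchain, adjusted p = 0.0336), and none without tumor 1, tumor 3 or any control. Of 30 genes of folding and secretion 2 were higher, 1 of them Fkbp11, a prolyl isomerase of the endoplasmic reticulum, at 3.80, 3.80 and 3.21 in the tumors and -0.19, 0.24 and 0.10 in the controls (difference 3.55, adjusted p = 0.000323). All 3 tumors were about 3 log2 units above all controls. Per1, of the circadian clock, was also higher in every tumor (0.75, 1.17 and 0.87 against -1.77, -0.92 and -1.42 in the controls, difference 2.30, adjusted p = 5.79e-05), with 1 of 16 clock genes higher and 1 lower. The labels do not state the hour of collection.

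Against the 7 tumors of the series that carry c-Myc alone, 5707 genes (26.5%) were called, 2668 (12.4%) higher and 3039 (14.1%) lower in the tumors with both transgenes, and 496 of these were among the 1546 that differed from controls. Of the 7 c-Myc tumors 6 were read on another scanner, on days with no array of another group, so scanner, day and group cannot be told apart; with the scan day as a block 13 genes were called, and without tumor 2 2873. Myc at A_52_P108346 was 4.68 ± 1.19 (SD, n = 3) in the tumors with both transgenes and 4.87 ± 1.79 (SD, n = 7) in the c-Myc tumors (adjusted p = 0.881). The mitotic list did not separate the 2 kinds of tumor, with 1 of 32 higher, 1 lower and a median difference near 0. Nor did Phgdh (5.80 ± 0.263 against 5.70 ± 1.03, adjusted p = 0.909) or Cdkn1a (3.99 ± 0.567 against 4.03 ± 0.679, adjusted p = 0.972). Psat1 was higher in the c-Myc tumors (6.69 ± 0.986 against 5.29 ± 0.809, adjusted p = 0.038). Igf2 read higher with both transgenes (4.75 ± 0.71 against 3.12 ± 0.887, adjusted p = 0.009). The Igf2 probe was saturated in 4 of the 7 c-Myc tumors and in 1 of the 3 with both transgenes. Both Igf2 means are therefore only bounds, and the direction of the difference is not settled. Tff3 was 5.21 ± 0.436 with both transgenes and 1.29 ± 2.31 in the c-Myc tumors, without overlap (adjusted p = 0.03), and Orm1 was -4.05 ± 0.967 against -1.51 ± 1.09, also without overlap (adjusted p = 0.001). Of 12 neutrophil markers 7, and of 16 macrophage markers 9, were lower with both transgenes than with c-Myc alone (3 macrophage markers were higher), and 4 of 6 Mup genes were higher; the part of the marker genes' cells in other differences was not tested.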

How the data were processed

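Expression was measured on 2-colour Agilent mouse arrays in 34 samples of 10 groups. Per the file headers, the authors' scanner software (Feature Extraction 9.1.3.1 or 10.7.3.1, named in the submitters' processing notes) subtracted background from the spot intensity values, normalized the dyes and wrote the log10 ratio of Cy5 (reference) over Cy3 (sample). The deposited log2 values of the series table correlate with the scanner ratios at r = 0.329 to 0.927, and their scale and centring remain unknown, so they served as an alternative. Here the log10 ratio was turned round and multiplied to log2 of sample over reference.

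Control spots and outlier spots were left out. Probes were named by accession through RefSeq (24844 of 41174), otherwise by the file's gene name, and kept if well above background on at least 3 arrays (31544 probes). The probe with the highest mean signal stood for its gene (21533 genes). limma 3.58.1 in R 4.3.3 fitted 1 mean per group over 31 arrays, with Benjamini-Hochberg adjustment. The other 3 arrays share a slide whose reference channel shows hepatocyte genes at the 49th to 64.5th percentile and intestinal genes above the 99th, unlike the rest. All 3 tumors and 3 controls entered the fit. The number of arrays limits the precision, and with 3 against 3 an exact test of 1 gene could not go below p = 0.1. Lower bounds of folds used normexp (offset 50), loess and Aquantile. The fit was tested on simulated data.

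Named genes are Myc and Tgfa at each probe, the 15 largest rises and falls without overlap, per list the 6 with the smallest p (every member of lists of up to 24 genes), and 8 per side for tumor 3 and against the c-Myc tumors. Some items that this rule names are not reported here. Members and lists were chosen with earlier results of these data known. Alternatives changed the background correction, normalization, filter, naming, arrays and blocks. Same-numbered tumors and controls did not deviate together (correlations 0.0973, -0.185 and -0.0347), so numbers were not treated as pairs. Nothing in the labels says how the animals were raised. The p-values measure the spread within groups over the 31 arrays fitted, most of which are not among these 6.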

Additional observations from a re-analysis of the deposited data

Results flagged for a closer look

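The genes with the largest differences between the 3 tumors with both transgenes and the 7 tumors with c-Myc alone are listed because the limma test of that difference passed. Scanner and scan day cannot be told apart from group in this comparison. Higher with both transgenes were the transporter genes Slc22a28 by 4.74 and Slc10a2 by 4.70, Mup1 by 4.51, Rdh16f2 by 4.44, Ido2 by 4.34, the estrogen receptor gene Esr1 by 4.21 and Olfr341 by 4.16, on the log2 scale. Prom2 was at least 3.22-fold higher, its probe being not well above background in any c-Myc tumor. None of these 8 differed from the controls at the threshold, with adjusted p-values from 0.0616 (Mup1) to 0.961 (Rdh16f2). Prom2 was even in the tumors with both transgenes (4.91, 4.80 and 4.70) and uneven in the controls (4.37, 0.25 and 1.20).

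Lower with both transgenes were Sult2a4 (-5.36), Rbp7 (-5.07), the macrophage gene Ms4a7 (-5.02), Mmd2 (-4.85), Prr15l (-4.53) and the interleukin receptor gene Il7r (-4.38). The chemokine gene Ccl8 was at least 4.04-fold lower and the prostaglandin D synthase gene Hpgds at least 1.67-fold lower, as neither probe was well above background in any of the 3 tumors with both transgenes. These 8 did not differ from the controls at the threshold either, with adjusted p-values between 0.253 and 0.994.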

How the results depend on the processing

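The count of 1546 genes called between tumors and controls was 463 with normexp and loess, 869 with the sample channel alone, 698 with quantile normalization, 936 with all arrays, 986 with the slide as a random block and 745 with the extraction protocol as a block, which was chosen after seeing the data. Only the groups compared gave 117, with 76.1% higher against 52.4%; here the spread comes from 6 arrays. Leaving out 1 array gave 425 (tumor 1) to 2626 (tumor 3). The cause of these shifts was not tested. The other 14 alternatives gave between 1075 and 1804. Changes called and beyond all controls in 3 tumors numbered 1474, and 448 with normexp and loess. With the replicate number as a block 41 genes were called, all of them among the 1546. Whether the numbers pair the animals is not stated in the labels. Against the c-Myc tumors the count was 5707, with 2812 from only the groups compared, 13 with the scan day as a block, and 2873 (without tumor 2) to 6061 with an array left out; no day holds both groups. No named gene changed its sign to a call in the other direction. Where a probe was not well above background in a whole group, its fold is given as a bound.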
